A study of Rattus norvegicus with 10 samples.

Results

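The 200 circular RNA (circRNA) probes with the brightest signal in rat synovial tissue were described, out of 14090 probes that carried no outlier mark on any array. Probes were ranked by their mean log2 level over all 10 arrays, where the level is the log2 processed signal minus the 75th percentile of circRNA signal on the same array. Rank 1 is the brightest. The members were chosen by their measured signal on these same arrays, so their brightness, ranks and share of signal are descriptions and carry no test. The ranking did not use the difference between the groups, but it did use the levels of both. Of the members, 174 were among the 200 brightest of the normal mean, 166 of the CIA mean and 140 of both. A member could thus enter through the group where it was high, so counts of higher and lower members are not free of the choice. Brightness depends on probe sequence and labelling as well as on RNA amount, so an order of probes is an order of signal and not of molecules. At the edge of the list, ASCRPR003949 and ASCRPR001696 held the last 2 ranks with mean log2 levels of 4.97 and 4.96, and the next 2 probes, just outside, had 4.94 each.

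The tissue was synovium, the membrane that lines the joint, from male rats aged 7 to 8 weeks, in samples labelled 21 days. One group of 5 samples came from rats with collagen-induced arthritis (CIA). In this model an immune response raised against injected collagen inflames the joints. The other 5 samples came from normal rats. Tissue of both groups was frozen in liquid nitrogen, and the RNA of both was digested with RNase R, an exonuclease that removes linear RNA and spares circles, before Cy3 labelling and hybridisation to 1 array per sample. Whether each numbered sample is its own animal is not given in the labels, so every p-value reflects spread between samples that may be technical.

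A circRNA forms by back-splicing, in which a downstream splice donor joins an upstream acceptor and leaves a closed loop without free ends. Lacking ends, circles resist exonucleases and can outlive the linear transcripts of their host gene, and some reach high levels in tissue. A few are known to bind microRNAs or proteins, while for most no role is established. The files used here give the probes by identifier, without host gene or sequence, so the members are named by identifier and no role is stated for any of them.

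The members could not be set against markers of synovial cell types, because the circRNA probes come without host genes. The 27 marker genes could be looked up only among the 39 named probes for linear transcripts, and 0 were found there. Scanning took place in 2 runs. All 5 CIA arrays and normal replicate 1 were in run 1, and normal replicates 2 to 5 were in run 2. The 75th percentile of circRNA signal was 133 to 315 units on the normal arrays and 263 to 381 on the CIA arrays. Actb, a cytoskeletal gene measured by a probe for its linear transcript, had a log2 level of 0.21 on normal replicate 1, 1.52 to 2.95 on the other normal arrays and -0.41 to 0.32 on the CIA arrays. Repeated spots of probes other than the circRNA probes differed within an array with a median SD of 0.073 to 0.14 on the log2 scale. Each circRNA probe has 1 spot per array, so no such value exists for the members. With 5 arrays a group, their number sets how precise each value can be.

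Normal replicate 1 stood with the CIA arrays over the members, and not with the rest of its group. Its Spearman correlation over the 200 members was 0.81 to 0.98 with the CIA arrays and 0.086 to 0.69 with the other normal arrays. It reached 0.98 with CIA replicates 1, 4 and 5. Normal replicates 2 to 4 formed a second set, with 0.89 to 0.96 among themselves and 0.10 to 0.39 with the CIA arrays. Normal replicate 5 lay between, with 0.56 to 0.65 to normal replicates 2 to 4 and 0.69 to 0.87 to the CIA arrays. Over all probes, whose levels span a far wider range, the correlations lay closer together. Normal replicate 1 then had 0.917 to 0.942 with the CIA arrays and 0.815 to 0.908 with the other normal arrays. Normal replicates 2 to 4 had 0.808 to 0.884 with the CIA arrays. Normal replicate 5 had 0.912 to 0.963 with normal replicates 2 to 4 and at most 0.932 with the CIA arrays. A wider range of levels can raise a correlation by itself, so these values do not show a weaker contrast outside the members. The median absolute log2 difference between scan runs was 0.85 over the members and 1.07 over the 200 probes ranked next. Over all probes tested it was 0.68. The correlations are over probes of single arrays, which share a platform and are not independent, and carry no test.

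The level of normal replicate 1 fell inside the range of the 5 CIA arrays for 124 of the 200 members. The same count was 32, 36, 25 and 79 for normal replicates 2, 3, 4 and 5. These counts were not made over all probes, so they do not set the members apart from other probes. Member levels of normal replicate 1 and CIA replicate 5 differed with an SD of 0.23 on the log2 scale. None of the 45 pairs of arrays held identical values. Results that rest on normal replicate 1 are given with and without it.

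**Figure D1:**
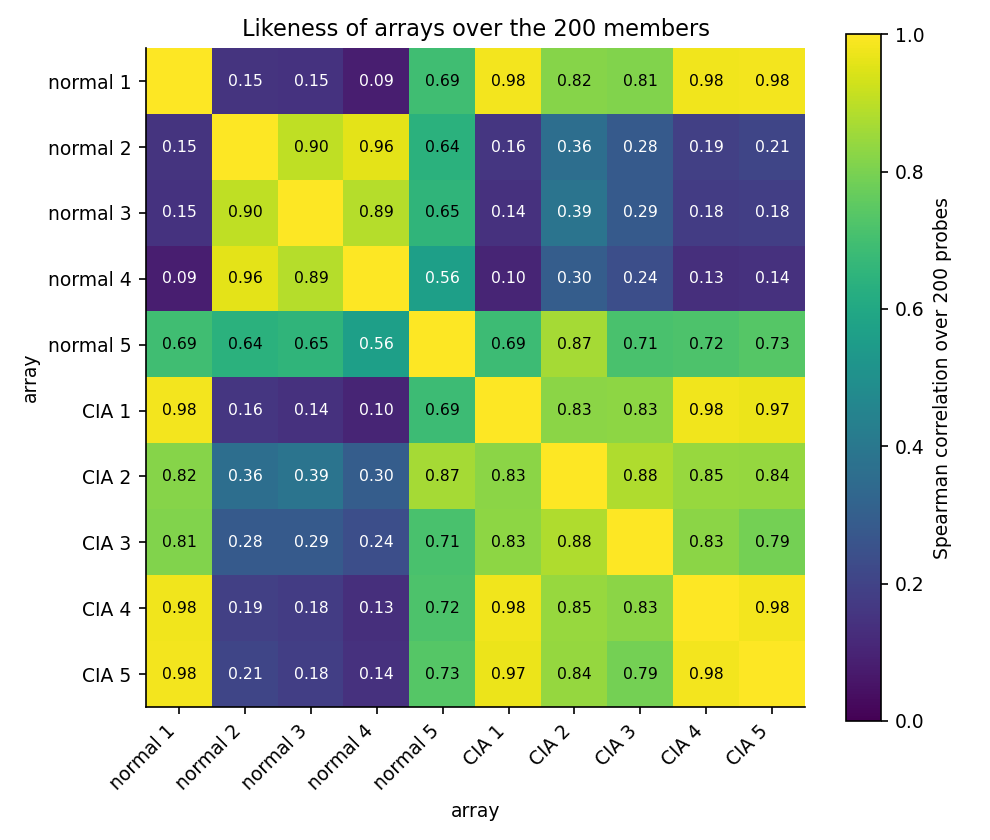
Spearman correlation over the 200 members for every pair of the 10 arrays (both axes list the arrays, colour and printed value give the correlation). Normal replicate 1 reads 0.98 with CIA replicates 1, 4 and 5, and normal replicates 2 to 4 read 0.89 to 0.96 among themselves.

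The 200 members, 200 of 14090 probes, held 46.4% ± 5.54 of the summed circRNA signal (SD, n = 10 arrays). They held 48.8%, 38.8%, 42.5%, 38.1% and 54.8% on normal replicates 1 to 5, and 47.9%, 52.5%, 43.9%, 47.0% and 49.8% on CIA replicates 1 to 5. Normal replicates 2 and 4 had the lowest shares, normal replicate 5 had the highest, and the groups overlapped. The mean share was 44.6% ± 7.11 for the normal arrays and 48.2% ± 3.20 for the CIA arrays (SD, n = 5 each), and 43.5% ± 7.74 (SD, n = 4) over the normal arrays of run 2. The difference of 3.63 percentage points was 2.18 without normal replicate 2, 2.00 without normal replicate 4 and 6.17 without normal replicate 5. It was -0.62 within scan run 1, where 1 normal array stands for its group. It was -0.26 in the deposited value table.

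The spread between arrays lay mostly in the brightest 50 members. The 10 brightest held 8.24%, 5.01%, 5.71%, 4.96% and 11.3% of circRNA signal on normal replicates 1 to 5, against 8.66%, 9.65%, 6.85%, 8.50% and 8.92% on CIA replicates 1 to 5. Ranks 11 to 50 held 18.6%, 9.92%, 11.7%, 9.31% and 19.9% on the normal arrays in the same order, and 14.9% to 20.3% on the CIA arrays. In both bands normal replicates 2, 3 and 4 lay below every CIA array, while normal replicates 1 and 5 lay within or above the CIA range for the 10 brightest and within it for ranks 11 to 50. Normal replicate 1 was scanned in run 1 and normal replicate 5 in run 2. Ranks 51 to 200 held 23.7% ± 1.07 on the normal arrays and 21.8% ± 0.57 on the CIA arrays (SD, n = 5 each). The 200 probes ranked next held 12.2% ± 1.17 and 12.4% ± 0.99 in the same order.

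A share that does not depend on the chosen list was tested, the share held by each array's own 200 brightest probes. It was 51.4%, 43.3%, 46.9%, 43.1% and 55.3% on normal replicates 1 to 5, and 50.3%, 53.3%, 46.5%, 49.2% and 51.8% on CIA replicates 1 to 5. The groups overlapped and their means differed by 2.20 percentage points, which did not pass a two-sided exact permutation test (p = 0.413, n = 5 each, smallest possible p 0.00794). The difference was 1.02 without normal replicate 2, 0.97 without normal replicate 4, 4.02 without normal replicate 5 and 1.44 without CIA replicate 2. The difference was -1.52 in the deposited value table (two-sided exact permutation p = 0.079, n = 5 each). Within scan run 1 the sign turned as well, to -1.24, in an exact test of 1 against 5 arrays that cannot go below 0.167 (p = 0.833). Between 145 probes on normal replicate 5 and 275 on normal replicate 4 were enough to hold 50% of an array's circRNA signal.

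**Figure D2:**
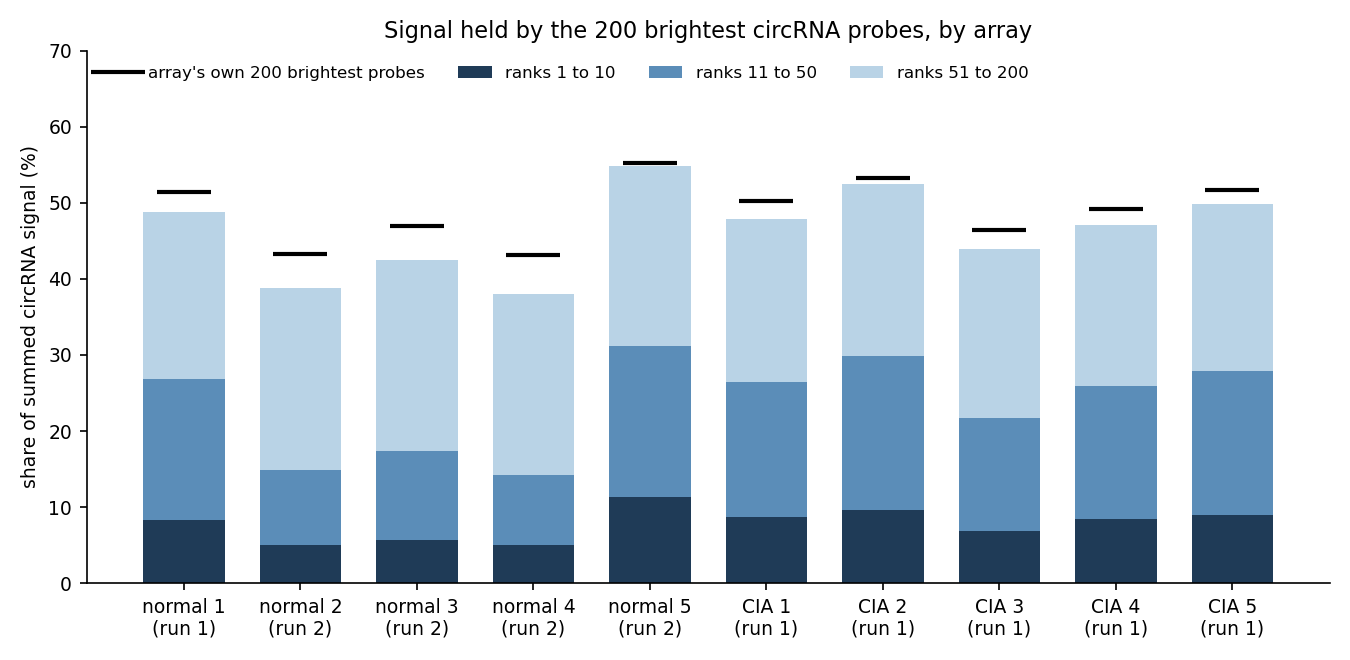
Share of the summed circRNA signal (%) held by members of ranks 1 to 10, 11 to 50 and 51 to 200 on each array, with the share of the array's own 200 brightest probes as a black line. The bars of normal replicates 2 and 4 reach 38.8% and 38.1%, while the other arrays reach 42.5% to 54.8%.

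All 200 members were well above background on all 10 arrays and none was saturated. The brightest member reached 6.58% to 22.8% of the saturation value, depending on the array. The median log2 level over the members was 6.05 ± 0.09 on the normal arrays and 6.03 ± 0.03 on the CIA arrays (SD, n = 5 each).

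The narrowest rank ranges belonged to members near the top of the list. Below rank 1 a rank could move both ways. Mean log2 levels ran from 8.60 at rank 1 to 7.72 at rank 10, but lay close together at the end of the list, at 4.97 and 4.96. Whether this spacing accounts for the narrow ranges was not tested. Levels near the top were not steadier: the residual SD had a median of 0.50 in ranks 1 to 50 and 0.47 in ranks 51 to 200. ASCRPR005079, at rank 1, had log2 levels of 8.80, 8.06, 8.50, 8.21 and 8.99 on normal replicates 1 to 5 and 8.92, 8.87, 8.39, 8.58 and 8.69 on CIA replicates 1 to 5. It ranked between 1 and 5 on every array and alone held 0.67% to 1.28% of circRNA signal. Its groups overlapped, with normal replicate 5 highest and normal replicate 2 lowest, and its log2 fold change (CIA over normal) was 0.18 (SE 0.25, limma adjusted p = 0.635). That change was -0.10 with scan run as a block, -0.04 after quantile normalization and -0.03 in the deposited value table, so it has no settled direction.

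ASCRPR012532 and ASCRPR006556, at ranks 2 and 3, ranked 1 to 5 and 1 to 6 on single arrays. ASCRPR006555, at rank 5, had the narrowest range of all members, from 4 to 7. Its log2 levels were 8.48, 7.81, 8.11, 7.65 and 8.81 on normal replicates 1 to 5 and 8.39, 8.63, 8.11, 8.40 and 8.59 on CIA replicates 1 to 5. Normal replicates 2 and 4 were the lowest arrays and normal replicate 5 the highest. ASCRPR009859 and ASCRPR009250, at ranks 9 and 10, ranked 9 to 26 and 10 to 41, each placed lowest on normal replicate 3. None of these 5 passed the test between groups (adjusted p = 0.356 to 0.664), and all 5 changed sign with scan run as a block.

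Other members of the first 10 moved more. ASCRPR004513, at rank 6, had log2 levels of 8.66, 6.69, 6.94, 6.63 and 9.17 on normal replicates 1 to 5 and 8.64, 8.74, 8.39, 8.54 and 8.60 on CIA replicates 1 to 5. Normal replicates 2 to 4 lay well below all other arrays, and it ranked from 2 to 51. ASCRPR008843, at rank 8, had 8.49, 6.48, 6.77, 6.55 and 8.53 on the normal and 8.41, 8.44, 7.92, 8.46 and 8.59 on the CIA arrays, the same arrangement. ASCRPR001036, at rank 4, was likewise at 7.31 to 7.52 on normal replicates 2 to 4 and at 8.18 to 9.27 on the other 7 arrays. The log2 fold changes of these 3 were 0.60 to 1.00 (adjusted p = 0.143 to 0.298), and with scan run as a block they turned to -0.13 to -0.08.

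ASCRPR000997, at rank 7, was the only one of the first 10 whose groups did not overlap, and the only one with a lower mean in CIA on this scale. After quantile normalization 3 others were also below 0, and 4 others in the deposited value table. Its log2 levels were 7.91, 8.32, 8.62, 8.17 and 8.18 on normal replicates 1 to 5 and 7.56, 7.53, 7.11, 7.55 and 7.70 on CIA replicates 1 to 5. Every CIA array lay below every normal array, normal replicate 1 being the lowest of its group. The log2 difference was -0.75 (SE 0.23), or 1.68-fold, and did not pass the adjusted test (limma adjusted p = 0.096). The limma adjusted p was 0.016 without normal replicate 1, a fit in which group and scan run cannot be told apart. The difference was -0.42 with scan run as a block (adjusted p = 1.00).

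**Figure D3:**
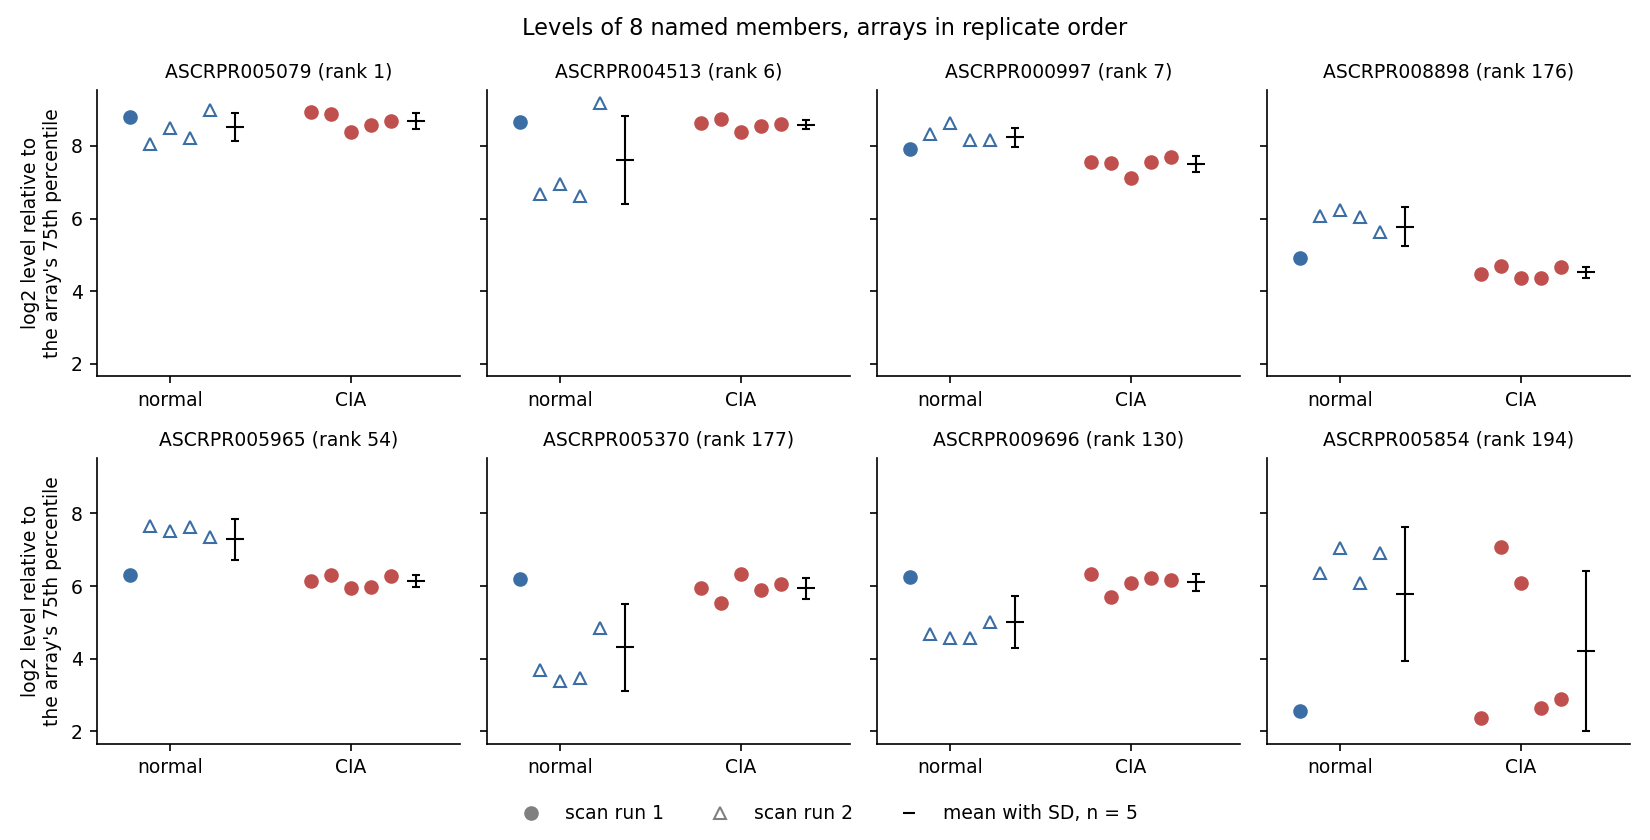
Log2 level of 8 members on each array, measured from the 75th percentile, in replicate order within a group, with filled circles for scan run 1, open triangles for run 2 and a bar for the mean and SD (n = 5). For ASCRPR005370, ASCRPR009696 and ASCRPR005965 the filled circle of normal replicate 1 lies beside the CIA circles, and only for ASCRPR000997 and ASCRPR008898 do the groups stay apart.

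Lower in the list, ranks shifted more from array to array. Of the 200 members, 90 (45%) were among the own 200 brightest probes of all 10 arrays. They made up 47 of the first 50 ranks, 43 of ranks 51 to 200 and 0 of the last 50 ranks. Members counted among an array's own 200 brightest numbered 154, 144, 143, 140 and 185 on normal replicates 1 to 5 and 158, 176, 157, 158 and 160 on CIA replicates 1 to 5. Normal replicate 5 and CIA replicate 2 thus resembled the averaged list most, and normal replicate 4 least. In all, 381 probes were among the own 200 brightest of at least 1 array, and 181 of these are not members.

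The span between a member's best and worst rank had a median of 158.5 places and ran from 3 to 1123. The worst rank was beyond 400 for 35 members and beyond 1000 for 2. The widest span belonged to ASCRPR001382, from 73 to 1196, whose log2 levels were 6.65, 2.90, 4.89, 2.33 and 5.72 on the normal and 6.03, 6.51, 6.37, 6.10 and 6.12 on the CIA arrays. The CIA arrays were close together, and normal replicates 2 and 4 lay far below every other array. When the groups were ranked separately, the 200 brightest probes of the normal mean and of the CIA mean shared 140 probes, 70% of each list. Without normal replicate 1 they shared 126.

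**Figure D4:**
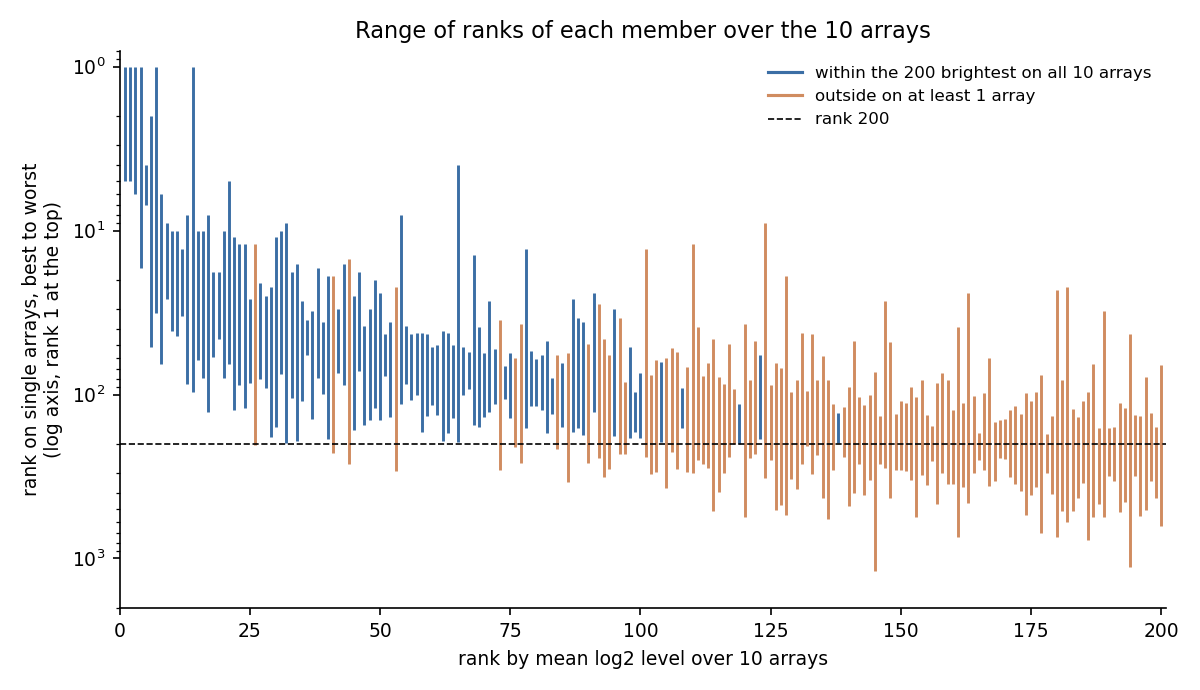
Best to worst rank of each member over the 10 arrays (vertical log axis, rank 1 at the top) against its rank by mean level. The 90 members within rank 200 on every array (blue) fill most of the left side, and none is among the last 50 ranks.

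A small set of bright members split the arrays in another way, across the groups. It was picked out after the values were seen, as the 4 members whose log2 difference with scan run as a block was over 0.9, namely ASCRPR005854, ASCRPR013810, ASCRPR010854 and ASCRPR000684. ASCRPR005854, at rank 194, had log2 levels of 2.57, 6.36, 7.05, 6.08 and 6.91 on normal replicates 1 to 5 and 2.38, 7.08, 6.09, 2.64 and 2.89 on CIA replicates 1 to 5. Normal replicate 1 and CIA replicates 1, 4 and 5 were low, and the other 6 arrays were high. All 4 members showed this arrangement, with 5.70 to 7.45 on the 6 high arrays and 2.38 to 4.25 on the 4 low ones. The choice fixed part of it: with scan run as a block the difference is that of the CIA arrays from normal replicate 1. Normal replicate 1 thus had to lie below the CIA mean. Both levels occurred in both groups, and the fold changes between groups did not pass the test (limma adjusted p = 0.306 to 0.462). Each of the 4 was among the own 200 brightest probes of just those 6 arrays.

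The spread of the members within groups came mostly from the normal group. The residual SD had a median of 0.48 over the members and 0.57 over all 13891 probes tested. The SD between arrays of a group had a median of 0.62 in normal and 0.26 in CIA tissue over the members, against 0.57 and 0.45 over all probes. It was larger in the normal group for 176 of 200 members and for 8447 of 13891 probes. The 200 probes ranked next were like the members, with medians of 0.65 in normal and 0.30 in CIA tissue and a larger normal SD for 167 of 200. Among the 4 normal arrays of run 2 the median SD was 0.46 over the members and 0.44 over all probes.

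The central comparison asked which of the bright circRNAs differed between arthritic and normal synovium. None of the 200 members passed an adjusted p of 0.05 in limma, with Benjamini-Hochberg adjustment over all probes tested, as was so for 0% of all 13891 probes. The smallest adjusted p was 0.096, shared by 23 members, and 0.091 over all probes. An unadjusted p under 0.05 was reached by 86 members (43%), against 32.4% of all probes. In these bulk samples, fewer cells that hold a circRNA and less of it per cell cannot be told apart.

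A looser rule asked for an unadjusted p under 0.05 and a difference of 1.5-fold or more. It listed 85 members (42.5%), against 31.7% of all probes. The 42 that were higher in CIA (21%, background 19.8%) differed by 1.54-fold to 3.31-fold. The 43 that were lower (21.5%, background 12%) differed by 1.51-fold to 4.61-fold. Among the 200 probes ranked next, 57 (28.5%) were higher and 50 (25.0%) lower by the same rule. Other ways of choosing the brightest probes moved the split, to 56 higher and 29 lower for the 200 highest medians, and to 57 and 35 for the 200 highest means of linear signal. The 42 higher members numbered 12 in ranks 1 to 50, and the 43 lower members 4. The count of higher members depended on single arrays: it was 68 without normal replicate 1 (background 28.6%), 16, 15 and 14 without normal replicates 2, 3 and 4 (background 11.3%, 12.3% and 11.8%) and 26 without CIA replicate 1 (background 17.8%). The split also depended on the scaling. It was 64 higher and 42 lower after quantile normalization (background 17.7% and 15.2%), and 32 and 51 after median centring (background 14.8% and 15.8%). It was 66 and 32 after normexp background correction (background 8% and 15%), and 67 and 42 in the deposited value table (background 13.7% and 12.7%). With array weights, 154 members passed the adjusted test (background 56.2%), and 80 were higher and 60 lower by the looser rule (background 36.1% and 20.4%). Normal replicates 1 and 5 had the lowest weights, 0.17 and 0.36, against 1.64 to 2.98 for normal replicates 2 to 4. That fit leaned on normal arrays of run 2 against CIA arrays of run 1, so it does not tell group from scan run.

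The 2 members higher in CIA with the smallest p were ASCRPR005370 and ASCRPR009696. ASCRPR005370, at rank 177, had log2 levels of 6.19, 3.70, 3.39, 3.48 and 4.84 on normal replicates 1 to 5 and 5.95, 5.52, 6.32, 5.89 and 6.04 on CIA replicates 1 to 5, and its CIA mean was higher by 1.63 log2 units (SE 0.49, limma adjusted p = 0.096). ASCRPR009696, at rank 130, had 6.24, 4.67, 4.56, 4.56 and 5.00 on the normal and 6.34, 5.71, 6.07, 6.21 and 6.16 on the CIA arrays, and was 1.09 higher (SE 0.33, limma adjusted p = 0.096). For both, normal replicate 1 lay among the CIA arrays and the other 4 normal arrays lay below all of them. With scan run as a block the values were -0.25 and -0.14. Without normal replicate 1 both passed (limma adjusted p = 0.0037 and 0.0038), but in that fit group and scan run cannot be told apart.

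The 2 lower in CIA with the smallest p were ASCRPR008898 and ASCRPR005965. ASCRPR008898, at rank 176, had log2 levels of 4.90, 6.06, 6.23, 6.05 and 5.64 on normal replicates 1 to 5 and 4.47, 4.69, 4.37, 4.36 and 4.67 on CIA replicates 1 to 5, a log2 difference of -1.26 (SE 0.28, limma adjusted p = 0.096). Its groups did not overlap, with normal replicate 1 nearest to the CIA arrays. ASCRPR005965, at rank 54, had 6.31, 7.66, 7.52, 7.63 and 7.34 on the normal and 6.14, 6.32, 5.94, 5.98 and 6.29 on the CIA arrays, a log2 difference of -1.16 (SE 0.29, limma adjusted p = 0.096). Here normal replicate 1 fell just inside the CIA range and the other normal arrays lay above it. With scan run as a block the values were -0.39 and -0.18. Both passed without normal replicate 1 (limma adjusted p = 0.0033 and 0.0034), again in a fit where group and scan run cannot be told apart.

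Groups that did not overlap were found for 13 members (6.5%), in each case with CIA below normal, against 1.2% of all probes in that direction and 2.71% in either. For 0 members did all CIA arrays lie above all normal arrays, against 1.52% of all probes. The 13 had log2 fold changes of -1.26 to -0.43 and adjusted p-values of 0.096 to 0.20. With scan run as a block, where the difference is that of the CIA arrays from normal replicate 1, they ran from -0.80 to -0.16. That sign follows from the separation itself, since normal replicate 1 lies above every CIA array in each of the 13. Of these 13, 7 were among the own 200 brightest probes of all 10 arrays.

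The median log2 fold change was 0.15 over the members and 0.19 over all probes tested, with 107 members above 0 and 93 below. In ranks 1 to 50 it was 0.47, with 39 of 50 above 0, and in ranks 51 to 200 it was -0.15, with 68 of 150 above 0. Beyond the list the median was 0.13 over the next 800 probes, 0.12 over the 4000 after those and 0.23 over the 8891 dimmer probes tested. The brightest 50 thus stood higher in CIA relative to the 75th percentile than the rest of the list did, a direction that turned with scan run as a block (3 of 50 above 0). The median of the members was 0.23 without normal replicate 1, 0.07, 0.09 and 0.03 without normal replicates 2, 3 and 4, and 0.07 and 0.10 without CIA replicates 1 and 5. Scaling moved the median of all probes too, from 0.19 to 0.05 after median centring, where the members had 0.01, and to -0.19 after normexp, where the members had 0.33.

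Scan run was set beside these values throughout. With scan run as a block, 0 members passed the adjusted test (background 0%) and 0 had an unadjusted p under 0.05 (background 2.4%). By the looser rule 0 were higher and 0 lower (background 1.27% and 1.13%). Their median log2 fold change was -0.19 and 47 of 200 were above 0, against 0.04 and 53.8% over all probes. The 200 probes ranked next had a median of -0.22 with 48 of 200 above 0, close to the members. Of the 42 members listed as higher in CIA 1 stayed above 0. Of the 43 listed as lower 23 stayed below and 20 turned above 0. Most members lay below 0 in this fit whatever their list, so the 23 do not show that the lower members held better. The same counts are not given for all probes. Within scan run 1 alone, the 5 CIA arrays against normal replicate 1, the values are the same and 0 members had an unadjusted p under 0.05 (background 2.1%, and 0.993% higher and 1.11% lower by the looser rule). Normal replicate 1 is the one normal array in that run, so both values rest on it.

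**Figure D5:**
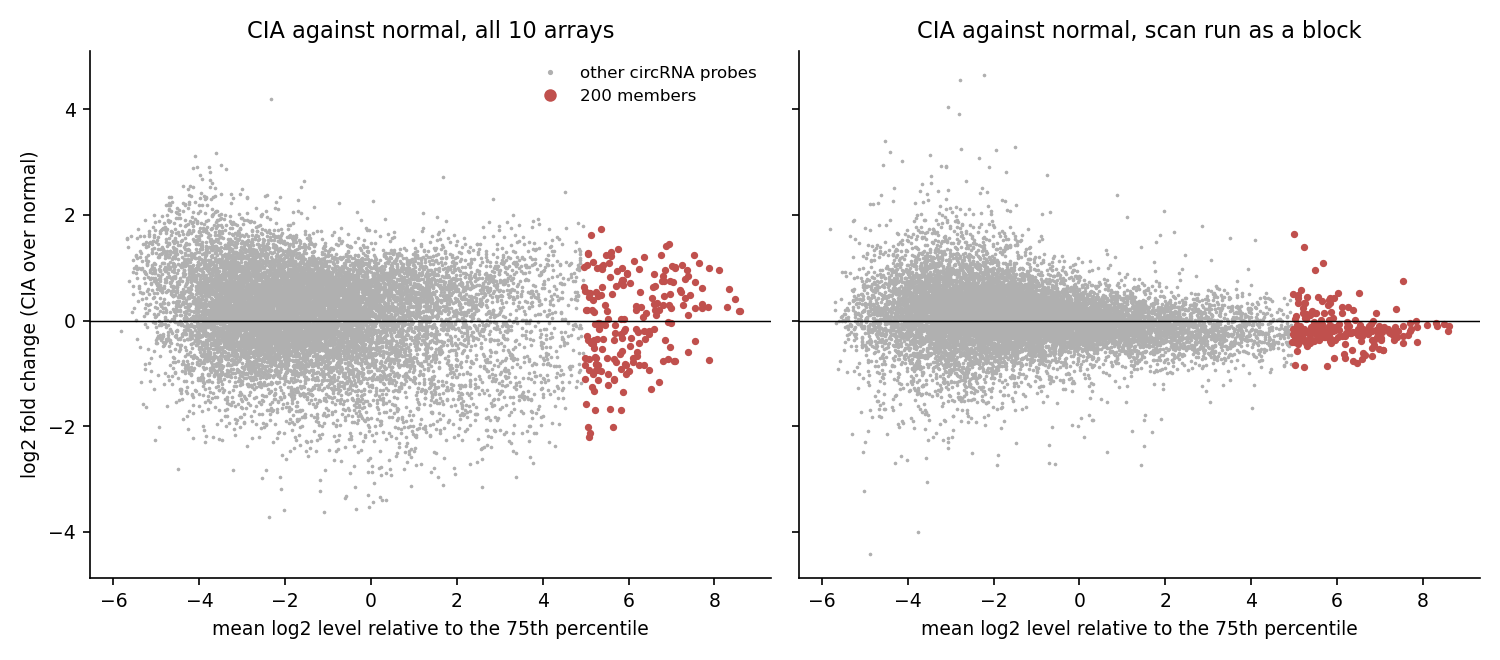
Log2 fold change (CIA over normal) against mean log2 level for the 13891 probes tested, with the 200 members in red, for all 10 arrays (left) and with scan run as a block (right). On the left the members spread from -2.21 to 1.73. On the right their median is -0.19, and 4 members lie above 0.9.

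Without normal replicate 1, 108 members (54%) passed the adjusted test, against 35.9% of all probes. They were 60 higher in CIA (background 22.4%) and 48 lower (background 13.5%). In that fit every normal array is from run 2 and every CIA array from run 1, so group and scan run cannot be told apart. When the runs themselves were compared over all 10 arrays, 119 members (59.5%) passed the adjusted test, against 41.1% of all probes. Of these 53 were higher in run 2 (background 15.3%) and 66 lower (background 25.7%). For 174 of the 200 members normal replicate 1 was nearer to the CIA mean than to the mean of the other normal arrays. So it was for 79 of the 85 listed by the looser rule. Neither count was made over all probes, so neither sets the members apart from other probes. Actb moved with this arrangement, being low on normal replicate 1 and the CIA arrays and high on normal replicates 2 to 5. The part of residual linear RNA in these results was not tested.

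Beyond signal, the members were not gathered in one place on the array. The 4 equal areas of the array held 23.5%, 24.5%, 23.0% and 29.0% of them, against 24.9% to 25.1% of all eligible probes, and 4% lay within 2 spots of the border, against 6.67%. Their spots were wider, with a median extent of 57.3 to 57.5 per array against 48.2 to 48.9 in the scanner's units. Whether that width follows from the brightness they were chosen for was not tested. The local background had a median of 13 to 14 units beside the members and 12 to 13 beside all eligible probes.

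Some members had consecutive probe numbers, and the files do not say what consecutive numbers share. A member with an adjacent number stood beside 18 members (9%) and beside 2.77% of all eligible probes, a description with no test. The 11 adjacent pairs had a median Pearson correlation of 0.97 over the 10 arrays (range -0.82 to 1.00), and 6 were above 0.9, of which 4 came from 1 run of 5 probes. The other pairs of members had a median of 0.12, with quartiles of -0.64 and 0.73.

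The longest run of consecutive members, noticed after the values were seen, was the 5 probes from ASCRPR006666 to ASCRPR006670, at ranks 45, 41, 17, 44 and 20. ASCRPR006668, the brightest, had log2 levels of 8.43, 5.95, 6.15, 5.95 and 8.04 on normal replicates 1 to 5 and 8.25, 8.22, 7.70, 8.24 and 8.32 on CIA replicates 1 to 5. Normal replicates 2 to 4 lay below every other array. The 5 had log2 fold changes of 0.84 to 1.44, none of which passed the adjusted test, and all 5 were below 0 with scan run as a block. A shorter run joined ASCRPR006555 and ASCRPR006556, at ranks 5 and 3, to ASCRPR006554, at rank 37.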

How the data were processed

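Total RNA from 5 CIA and 5 normal synovial samples was digested with RNase R, labelled with Cy3 and hybridised to 1-colour circRNA arrays, per the labels' protocols. The intensity values were extracted by the authors with Feature Extraction 11.0.1.1, which subtracts background within the array and does not normalize between arrays, per the file headers. A value table deposited by the authors is on a log2 scale, with centring and direction unstated. Its columns followed their own array's median signal (Spearman 0.9993 to 0.9999) with medians of 6.76 to 6.80, and it was used as an alternative only. limma is named, with no version, in the submitters' processing notes.

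Each array held 15701 spots, of which 536 control spots were left out. Of 14145 circRNA probes, 55 with an outlier mark were left out. The 13891 probes well above background on at least 5 arrays were fitted in R 4.3.3 by limma 3.58.1 (lmFit, then eBayes). P-values were two-sided, adjusted by Benjamini-Hochberg and read at 0.05. One share was compared with an exact permutation test over 252 assignments. Figures were drawn with matplotlib 3.10.9. Scan runs follow the times that the headers record. Deviations from the group mean correlated at -0.089 to 0.18 between same-numbered samples. That cannot show whether samples were paired. The labels name no pairs, so samples were treated as unpaired.

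The members, the alternatives and the rule for named members were chosen with earlier results of these data known. The rule names the 10 brightest, the 2 widest and 2 narrowest rank ranges, the 2 higher and 2 lower with the smallest p and the 2 probes on each side of the list's edge. No circRNA sequence or host gene was used here.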

Additional observations from a re-analysis of the deposited data

Results flagged for a closer look

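In 9 of 46 groups of 5 values examined, 1 array stood apart from the other 4 by over 0.71 of the range (Dixon's 95% value). Independent, unselected groups would pass that value by chance in about 1 in 20 cases. The groups here share the same arrays and include members picked for their values, so the 9 cannot be set against that rate. Normal replicate 1 stood apart in 4: lowest for ASCRPR005965 (6.31) and ASCRPR005854 (2.57), and highest for ASCRPR009696 (6.24) and ASCRPR003949 (5.53). CIA replicate 3 was lowest for ASCRPR001036 (8.18), ASCRPR000997 (7.11) and ASCRPR008843 (7.92). CIA replicate 2 was lowest for ASCRPR003949 (4.95) and held the most members among its own 200 brightest probes (176).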

How the results depend on the processing

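No member passed the adjusted test under the alternatives run, except 108 without normal replicate 1 and 154 with array weights, which gave that array the lowest weight (background 56.2%). Both fits lean on normal arrays of run 2 and do not tell group from scan run. Leaving out 1 array gave 0 to 108 members at the adjusted threshold (background 35.9% for the 108) and 14 to 68 higher by the looser rule (background 11.8% and 28.6%). Members higher by that rule numbered 64 after quantile normalization, 66 after normexp, 67 in the deposited table and 80 with array weights (background 17.7%, 8%, 13.7% and 36.1%), and 0 were higher and 0 lower with scan run as a block or within run 1. The median log2 fold change was 0.012 after median centring, 0.33 after normexp, -0.19 with the scan block or within run 1, 0.26 for the 100 highest means or the 200 highest medians, 0.28 for the 200 highest linear means, and 0.030 to 0.23 when 1 array was left out. The difference in the share of each array's own 200 brightest probes reversed to -1.52 in the deposited table and -1.24 within run 1, and was 0.97 to 4.02 when 1 array was left out. Quantile normalization gives every array 1 distribution and no such difference.

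These named members reversed. After quantile normalization ASCRPR005079 was -0.037, ASCRPR012532 -0.035 and ASCRPR006555 -0.046. In the deposited table ASCRPR005079 was -0.035, ASCRPR012532 -0.095, ASCRPR009859 -0.025 and ASCRPR009250 -0.084. With the scan block, and equally within run 1, ASCRPR005079 was -0.10, ASCRPR012532 -0.19, ASCRPR006556 -0.061, ASCRPR001036 -0.11, ASCRPR006555 -0.050, ASCRPR004513 -0.078, ASCRPR008843 -0.13, ASCRPR009859 -0.011, ASCRPR009250 -0.16, ASCRPR009696 -0.14, ASCRPR001382 -0.43, ASCRPR005370 -0.25, ASCRPR003949 -0.25, ASCRPR001696 -0.41 and ASCRPR005854 1.65. The causes were not tested.

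The replicate number as a block, which the labels do not give as a pairing, gave 0 members at the adjusted threshold (background 0%). Its median of 0.15 was fixed in advance, since each block holds 1 array of each group and leaves every fold change as it was. The block changed no adjusted call. The count of members bright on every array was 90 after quantile normalization, normexp and in the deposited table. There the member list was kept and ranks were taken within each array. Quantile normalization keeps that order, and the deposited columns follow their own array closely, so these counts had little or no room to change. When 1 array was left out and the members were chosen anew, the count was 90 to 95. All 200 members were well above background on all 10 arrays, and every value within scan run 1 rests on 1 normal array.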
